A study of Mus musculus with 16 samples.

Results

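The genes described here are the E2F transcription factors E2f1, E2f2, E2f3, E2f4, E2f6, E2f7 and E2f8 and the retinoblastoma, or pocket, proteins Rb1, Rbl1 and Rbl2. They are 10 of the 39057 rows of a count table of primary mouse brain endothelial cells that carried human *APOE3* or human *APOE4*. They were picked by name, as 3 activators (E2f1, E2f2, E2f3), 4 repressors (E2f4, E2f6, E2f7, E2f8) and 3 pocket proteins, and all 10 had enough counts to be tested.

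E2F proteins sit on the promoters of genes that a cell needs to copy its DNA. In resting cells the pocket proteins bind the E2F proteins and hold these genes off. Growth signals switch on cyclin-dependent kinases (CDKs), which phosphorylate the pocket proteins, release the activator E2Fs and let the cell enter S phase. E2f4 works mostly as a repressor together with Rbl1 and Rbl2, E2f6 represses within Polycomb complexes without pocket proteins, and E2f7 and E2f8 are atypical members that bind DNA without a DP partner and switch E2F target genes off again late in S phase. Several of these genes are themselves E2F targets, so their transcripts also follow the cycle. Endothelial cells of the mature brain are mostly resting, and cultured ones cycle until they reach confluence.

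The mice were targeted replacement animals, with the coding gene of human *APOE3* or *APOE4* driven by the mouse Apoe promoter, so that every cell type that uses this promoter made the human isoform. The study asked whether this genotype changes brain endothelial cells themselves. Cells came from the cortices of mice aged 21 to 28 days, 1 brain per well, were selected with puromycin at 8 µg/ml, which all cultures of both genotypes received, and were otherwise untreated and grown to confluence without passage. There were 16 cultures, 8 per genotype with 4 males and 4 females each, 1 polyA RNA library per culture. Each genotype was 1 mouse line, so genotype and line cannot be told apart. The cultures were whole wells and were not sorted, so fewer cells of a kind and less RNA per cell cannot be told apart in these values.

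Total counts per library were 12717847 to 18624417. The members had at least 150 and at most 1269 counts in any library, so none was near the floor of 3 counts. Human APOE was lower in *APOE4* libraries (1172 ± 174 CPM, counts scaled to a common library size, in *APOE3* and 796 ± 134 CPM in *APOE4*, SD, n = 8 each, log2 fold change -0.56, SE 0.0986, edgeR adjusted p = 0.00542). All 15 endothelial markers were detected, and their summed level ranged from 16890 to 17870 CPM in *APOE3* and from 16610 to 18060 CPM in *APOE4* libraries, with 1 marker called higher and 1 lower, where called means an edgeR adjusted p under 0.05. None of the markers of the other cell types that had enough counts was called. Their summed levels ranged from 188 to 355 CPM in *APOE3* and from 223 to 340 CPM in *APOE4* for 10 pericyte and smooth muscle markers, from 12.5 to 60.5 and from 8.49 to 77.1 CPM for 5 fibroblast markers (Lum at most 3 counts), from 31.9 to 41.7 and from 33.4 to 43.4 CPM for 5 astrocyte markers (Aqp4 at most 3 counts), and from 8.64 to 12.6 and from 10.4 to 15.0 CPM for 5 neuron markers (Snap25 at most 3 counts). The 7 microglia and macrophage markers summed to at most 0.648 CPM, with Cx3cr1, P2ry12, C1qa and Itgam at 3 counts or fewer in every library, and the 4 oligodendrocyte markers to at most 1.97 CPM, with Mog and Olig2 at 3 counts or fewer. Single genes made up most of some sums. Gja1 had a mean of 33.5 CPM in *APOE3* and 36.6 CPM in *APOE4*, while the astrocyte marker Gfap had 0.124 and 0.113 CPM. Tubb3 made up most of the neuron sum (9.285 and 10.73 CPM). Tagln (161.5 and 177.9 CPM) and Acta2 (83.8 and 80.33 CPM) made up most of the pericyte and smooth muscle sum. The pericyte marker Rgs5 was at 0.278 and 0.394 CPM. The part that other cell types play in the differences below was not tested.

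The promoters of the members show which of them carry the letters that E2F proteins recognise. Windows from 250 bases before to 50 bases after the start were taken from RefSeq (GRCm38.p6), which held a window for 8 of the 10 members. E2F letters were TTTCCCGC, TTTCGCGC, TTTGCCGC or TTTGGCGC, on either strand. They were found in the windows of E2f2, E2f3, E2f7 and Rbl1, 4 of 8 members, against 704 of 27025 genes with a window (2.6%) and 744 of all 32851 windows (2.26%). They were not in the windows of E2f1, E2f6, E2f8 and Rbl2. The window of E2f1 starts inside the gene as GENCODE annotates it, so it does not cover the sequence before that start. The letters TTTGAA, which the MuvB complex of mitotic genes is known to bind, were in 1 window each of E2f2, E2f3, E2f8 and Rbl2, against 17.9% of all windows. CCAAT was found in 37.4% of all windows and in windows of E2f2, E2f3, E2f7 and E2f8. No match overlapped another in the sequences shown.

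The bases before the start are shown for the members that a site or a genotype difference singles out, 5′ to 3′ on the strand of the gene. Capitals mark the E2F letters in E2f7 (chr10:110745189-110745438, plus strand), Rbl1 (chr2:157204535-157204784, minus strand) and E2f3 (chr13:29986064-29986313, minus strand), and in the 30 bases of E2f2 at chr4:136172294-136172323 (plus strand), where the site lies 39 bases after the start. In E2f8 (chr7:48881597-48881846, minus strand) capitals mark TTTGAA, read on the other strand.
E2f7: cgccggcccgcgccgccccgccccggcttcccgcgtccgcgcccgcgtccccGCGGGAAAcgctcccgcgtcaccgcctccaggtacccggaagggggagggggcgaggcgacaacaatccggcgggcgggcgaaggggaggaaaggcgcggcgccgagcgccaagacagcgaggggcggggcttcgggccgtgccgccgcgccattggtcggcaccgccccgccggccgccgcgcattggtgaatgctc
Rbl1: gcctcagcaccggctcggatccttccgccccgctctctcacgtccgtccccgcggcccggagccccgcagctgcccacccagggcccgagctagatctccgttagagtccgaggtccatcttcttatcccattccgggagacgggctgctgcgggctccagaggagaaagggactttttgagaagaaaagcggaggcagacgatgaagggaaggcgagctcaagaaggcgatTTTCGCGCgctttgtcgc
E2f3: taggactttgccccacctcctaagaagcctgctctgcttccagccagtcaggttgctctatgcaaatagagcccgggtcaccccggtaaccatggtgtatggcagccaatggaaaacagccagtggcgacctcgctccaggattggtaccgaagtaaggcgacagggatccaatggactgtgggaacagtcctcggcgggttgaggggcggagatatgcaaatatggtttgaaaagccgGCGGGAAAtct
E2f2: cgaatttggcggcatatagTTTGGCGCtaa
E2f8: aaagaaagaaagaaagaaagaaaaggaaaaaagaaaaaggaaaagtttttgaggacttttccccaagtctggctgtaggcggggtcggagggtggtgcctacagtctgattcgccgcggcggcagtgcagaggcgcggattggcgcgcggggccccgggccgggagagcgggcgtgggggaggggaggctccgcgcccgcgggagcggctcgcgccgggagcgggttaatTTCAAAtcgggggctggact
The site of Rbl1 begins 18 bases before the start, that of E2f3 11 bases and that of E2f7 198 bases before it. As the values below show, E2f7 and Rbl1 rose and E2f3 did not pass the test, so the letters were present on both sides of the threshold, and E2f8 rose without them in its window. A match is a description of the sequence and not of binding.

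Among the E2F repressors, E2f7 and E2f8 were called in the comparison of *APOE4* with *APOE3* and E2f4 and E2f6 were not, and the difference between these repressors was not tested. E2f7 and E2f8 were higher in *APOE4* by 35.3% and 39.5%, and the pocket protein Rbl1 by 24.3%, while E2f4, E2f6, Rb1 and Rbl2 differed by less than 5% and did not pass the test. The activators E2f1 and E2f2 had differences of 20.4% and 30.8% that missed the threshold, and E2f3 one of 7.55%. So 3 of 10 members were called higher and 0 lower at an edgeR adjusted p under 0.05. Over all features, 12.8% of 12481 genes were called, 6.71% higher and 6.09% lower. In 0 members did every *APOE4* library lie above every *APOE3* library, which held for 0.256% of all genes.

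**Figure D1:**
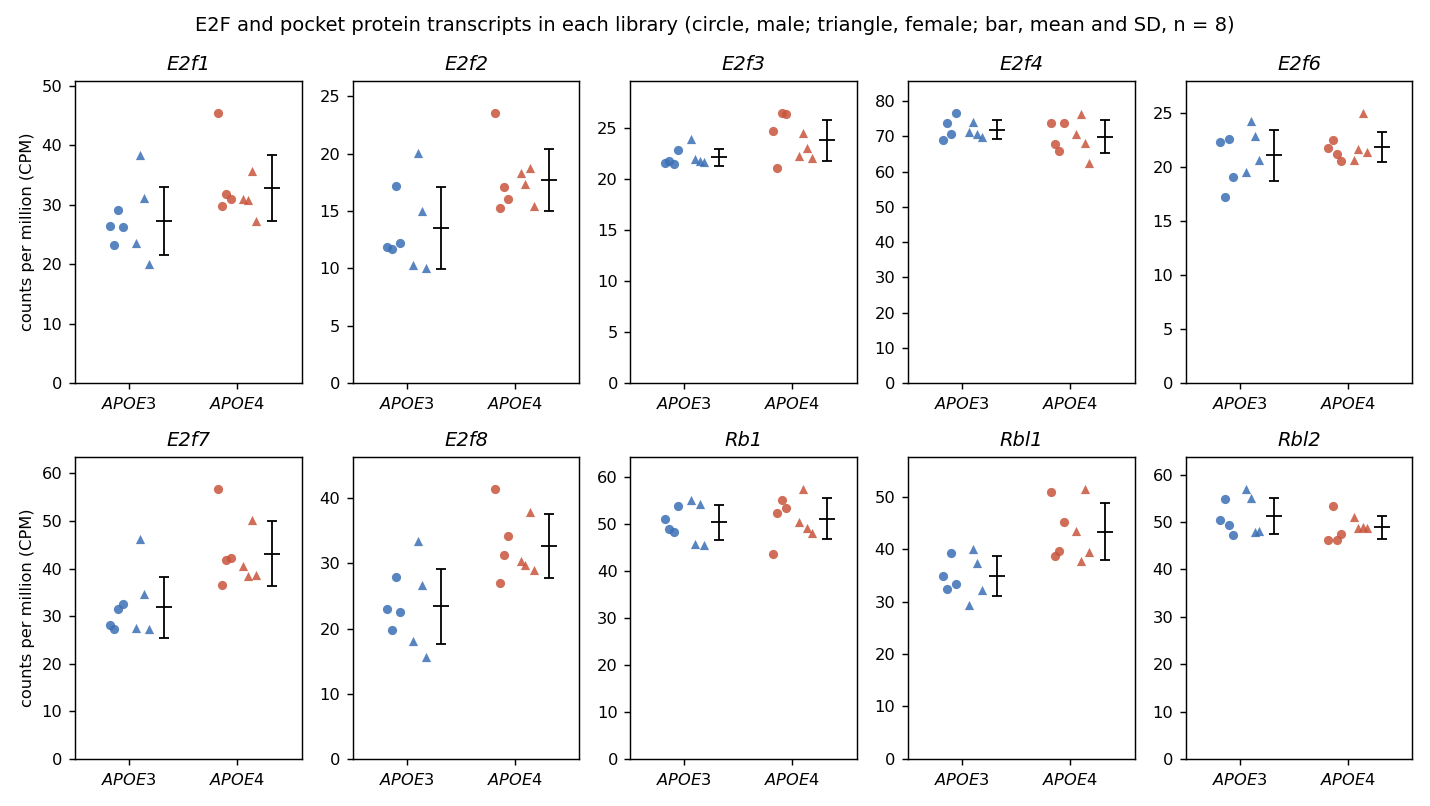
CPM of the 10 members in each of the 16 libraries, with male cultures as circles, female cultures as triangles and the mean and SD of 8 libraries as a bar. E2f7, E2f8 and Rbl1 sit higher in *APOE4* libraries, while E2f4, E2f6, Rb1 and Rbl2 share one range. *APOE3* replicate 6 lies inside the *APOE4* range of E2f7, E2f8 and Rbl1, and *APOE3* replicate 3 inside that of E2f8 and Rbl1.

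**Figure D2:**
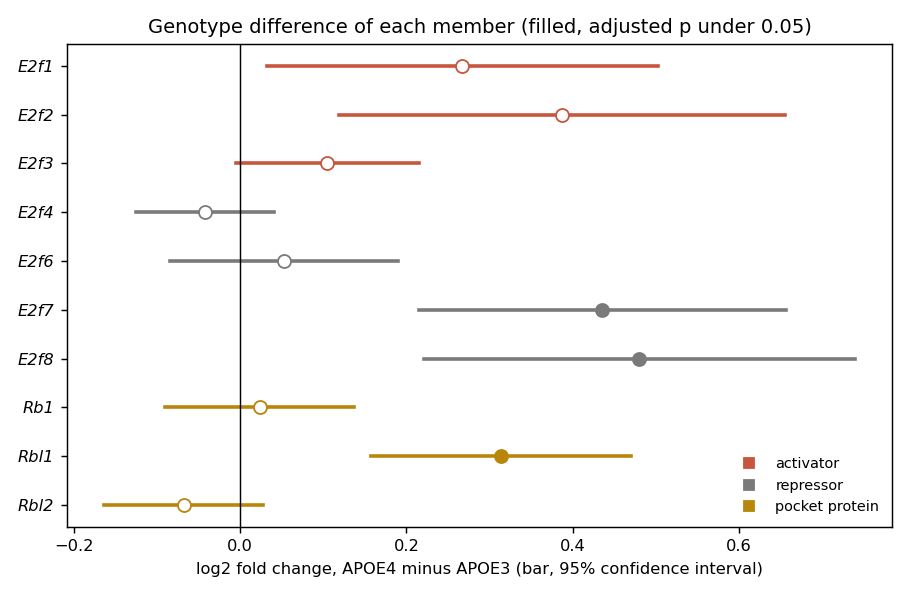
The log2 fold change of each member, *APOE4* minus *APOE3*, with its 95% confidence interval from the edgeR fit, coloured by role and filled where the adjusted p is under 0.05. The intervals of E2f7, E2f8 and Rbl1 lie above 0 and their points are filled. Those of E2f1 and E2f2 also lie above 0, with open points, and those of E2f3, E2f4, E2f6, Rb1 and Rbl2 include 0.

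Of the activators, E2f1 is the best known driver of S phase entry and can also trigger cell death. E2f1 (ENSMUSG00000027490.17, chromosome 2 of mm10, the build of all coordinates here, 154559407 to 154569892, minus strand) ranged from 20.0 CPM through a median of 26.3 to 38.3 CPM in *APOE3* libraries and from 27.2 through 31.0 to 45.4 CPM in *APOE4* libraries. The groups overlapped, with *APOE3* replicate 6 (38.3 CPM) above all *APOE4* libraries but replicate 1 (45.4 CPM), yet each of the 8 *APOE4* libraries exceeded the median of the *APOE3* group. The log2 fold change was 0.27 (SE 0.113, 95% interval 0.03 to 0.50, edgeR adjusted p = 0.121). Without *APOE3* replicate 6 it was 0.35 and passed the test (edgeR adjusted p = 0.0211), and it missed it in the other 15 fits that each left out 1 library.

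E2f2, an activator that can stand in for E2f1 in many settings, was the least abundant member in CPM. E2f2 (ENSMUSG00000018983.9, chromosome 4, 136172394 to 136196057, plus strand) ranged from 10.1 through 12.0 to 20.1 CPM in *APOE3* and from 15.3 through 17.2 to 23.5 CPM in *APOE4* libraries. The lowest *APOE4* library exceeded 6 of the 8 *APOE3* libraries. The log2 fold change was 0.39 (SE 0.129, 95% interval 0.12 to 0.66) and the edgeR adjusted p of 0.0520 lay just above the threshold. It stayed above with DESeq2's size factors (edgeR adjusted p = 0.0527), with no filter on low counts (0.0567) and with sex as a covariate (0.0586). Other settings put it just below, with an adjusted p of 0.0287 by DESeq2 and 0.0257 by voom with quality weights, or 0.0479 by edgeR with at least 10 counts required in every library, and it passed in 4 of 16 fits that left out 1 library, those without *APOE3* replicate 3 or 6 or *APOE4* replicate 2 or 8.

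E2f3, which is needed for normal S phase entry in many cells, spread little. E2f3 (ENSMUSG00000016477.17, chromosome 13, 29906575 to 29986063, minus strand) ranged from 21.5 through 21.8 to 23.9 CPM in *APOE3* and from 21.1 through 23.8 to 26.5 CPM in *APOE4* libraries. The groups overlapped, and its log2 fold change of 0.11 (SE 0.0528, 95% interval -0.01 to 0.22, edgeR adjusted p = 0.194) left room for a difference of at most 0.22. None of the 16 fits without 1 library called it.

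Among the repressors, E2f4 and E2f6 gave narrow intervals around 0. E2f4 (ENSMUSG00000014859.9, chromosome 8, 105297663 to 105305370, plus strand) was at 68.9 to 76.5 CPM in *APOE3*, with a median of 71.0, and at 62.4 to 76.4 CPM in *APOE4*, with a median of 69.5. Its log2 fold change was -0.04 (SE 0.0398, 95% interval -0.13 to 0.04, edgeR adjusted p = 0.516). E2f6 (ENSMUSG00000057469.7, chromosome 12, 16810963 to 16839742, plus strand) was at 17.2 to 24.3 CPM in *APOE3*, with a median of 21.5, and at 20.6 to 25.0 CPM in *APOE4*, also with a median of 21.5. Its log2 fold change was 0.05 (SE 0.0659, 95% interval -0.08 to 0.19, edgeR adjusted p = 0.639). The libraries of both genotypes shared one range for both genes.

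E2f7 and E2f8 limit the output of the activators and are known in blood vessel growth, where the pair acts with HIF1 on the Vegfa gene. E2f7 (ENSMUSG00000020185.16, chromosome 10, 110745439 to 110787384, plus strand) ranged from 27.4 through 29.8 to 46.3 CPM in *APOE3* libraries and from 36.5 through 41.2 to 56.7 CPM in *APOE4* libraries. All *APOE3* libraries but replicate 6 lay below the lowest *APOE4* library, that is 7 of 8. Its log2 fold change was 0.44 (SE 0.106, 95% interval 0.22 to 0.66, edgeR adjusted p = 0.0135).

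E2f8 (ENSMUSG00000046179.17, chromosome 7, 48866429 to 48881596, minus strand) ranged from 15.6 through 22.8 to 33.4 CPM in *APOE3* and from 26.9 through 30.8 to 41.4 CPM in *APOE4* libraries. The lowest *APOE4* library exceeded 6 of 8 *APOE3* libraries, and *APOE3* replicate 6 and *APOE4* replicate 1 were again the highest of their groups. Its log2 fold change was 0.48 (SE 0.124, 95% interval 0.22 to 0.74, edgeR adjusted p = 0.0179), the largest of the 10 members. E2f7 and E2f8 passed the test in all 16 fits that left out 1 library, with adjusted p up to 0.0360 and 0.0444.

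Of the pocket proteins, Rbl1 was called and Rb1 and Rbl2 were not. Rbl1 encodes p107, the pocket protein whose transcript is an E2F target and which is known to be made mainly by dividing cells. Rbl1 (ENSMUSG00000027641.13, chromosome 2, 157145893 to 157204534, minus strand) ranged from 29.3 through 34.2 to 40.1 CPM in *APOE3* and from 37.8 through 41.5 to 51.4 CPM in *APOE4* libraries. Of the *APOE4* libraries 4 exceeded every *APOE3* library, and 6 *APOE3* libraries lay below every *APOE4* library. The log2 fold change was 0.31 (SE 0.0751, 95% interval 0.16 to 0.47, edgeR adjusted p = 0.0128), with adjusted p of 0.00500 to 0.0342 over the 16 fits that left out 1 library.

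Rb1, the founding tumour suppressor of the family, restrains the activators. Rb1 (ENSMUSG00000022105.6, chromosome 14, 73183673 to 73325822, minus strand) was at 45.6 to 55.1 CPM in *APOE3*, with a median of 49.98, and at 43.5 to 57.4 CPM in *APOE4*, with a median of 51.4. Its log2 fold change was 0.02 (SE 0.0547, 95% interval -0.09 to 0.14, edgeR adjusted p = 0.822). Rbl2 encodes p130, the pocket protein that prevails in resting cells. Rbl2 (ENSMUSG00000031666.15, chromosome 8, 91070057 to 91123844, plus strand) was at 47.2 to 56.95 CPM in *APOE3*, with a median of 49.9, and at 46.2 to 53.3 CPM in *APOE4*, with a median of 48.7. Its log2 fold change was -0.07 (SE 0.0457, 95% interval -0.16 to 0.03, edgeR adjusted p = 0.344). Some exons of these genes overlap genes of the opposite strand, namely 8.11% of the exonic length of Rb1 with Rcbtb2 and 6.78% with Lpar6, and 9.17% of Rbl2 with Aktip and 11.8% with Gm45464. The strand setting of the counting is not given in the sources used here, so some reads of Rb1 and Rbl2 could belong to those genes. E2f8 shares 11.2% of its exonic length with Gm2788, which had 11 counts in all.

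Compared per length, as RPKM (CPM divided by the exonic length in kilobases), E2f4 was by a wide margin the most abundant of the 7 E2F genes described here. It was at 29.4 ± 1.06 RPKM in *APOE3* and 28.5 ± 1.91 RPKM in *APOE4* libraries. E2f1 followed at 8.64 ± 1.80 and 10.4 ± 1.77 RPKM, and in both genotypes its range lay apart from those of E2f4 above and E2f8 below. The other E2F genes were between 2.77 and 5.99 RPKM on average, with E2f8 highest and E2f2 lowest, and each overlapped its neighbours in this order. E2f7 moved from the sixth place in *APOE3* (3.54 ± 0.712 RPKM) to the fourth in *APOE4* (4.79 ± 0.762 RPKM), and its ranges overlapped those of its neighbours in both. Of the pocket proteins Rb1 was highest (8.37 ± 0.626 and 8.51 ± 0.729 RPKM). Rbl2 ranked above Rbl1 in *APOE3* (6.78 ± 0.508 against 5.82 ± 0.626 RPKM) and below it in *APOE4* (6.46 ± 0.317 against 7.22 ± 0.908 RPKM), with overlapping ranges in both.

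As a share of the summed RPKM of the 7 E2F genes, E2f4 made up 52.3% ± 3.85 in *APOE3* and 46.4% ± 2.67 in *APOE4* libraries. E2f7 and E2f8 together made up 13.8% ± 1.78 and 17.5% ± 1.48, and the 3 activators 27.3% ± 2.00 and 29.8% ± 1.59. The sum of E2f4 and E2f6 was 33.1 ± 0.996 RPKM in *APOE3* and 32.4 ± 1.88 RPKM in *APOE4*, and that of E2f7 and E2f8 was 7.84 ± 1.72 and 10.8 ± 1.65 RPKM. Rbl1 made up 27.7% ± 2.73 of pocket protein RPKM in *APOE3* and 32.5% ± 3.72 in *APOE4*. These shares restate the members' values on another scale and were not tested.

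**Figure D3:**
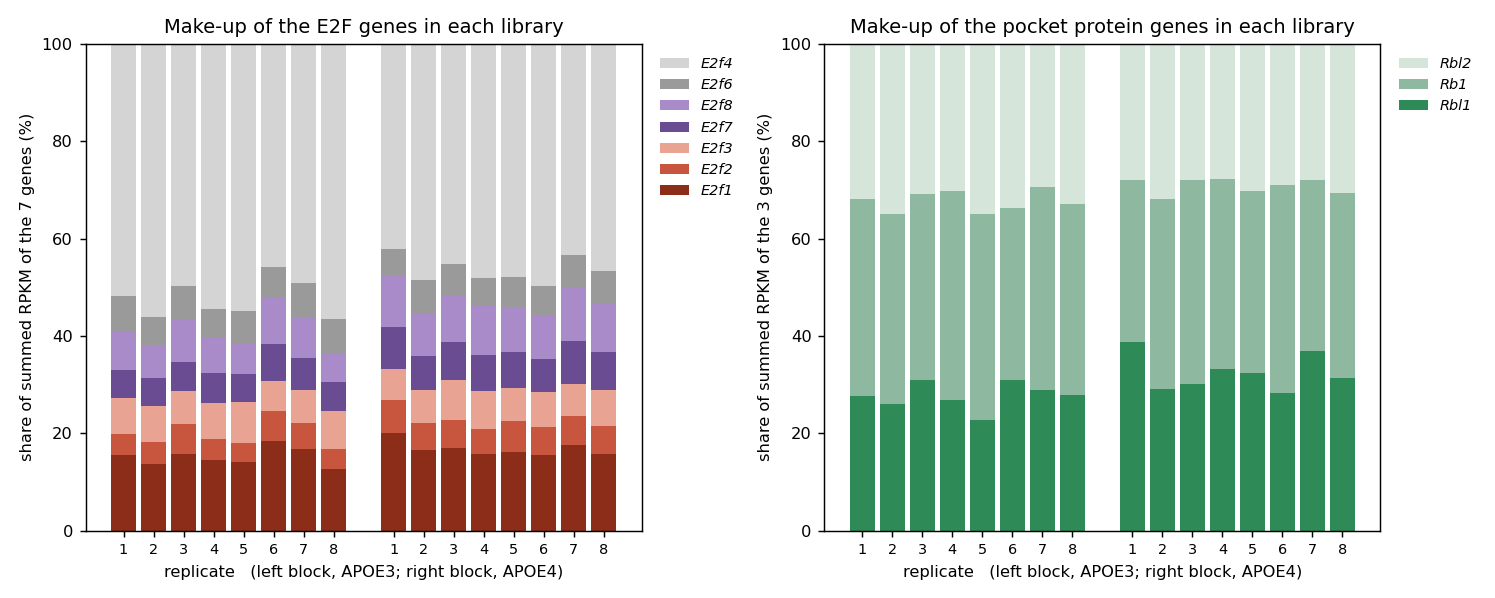
Share of the summed RPKM (%) that each E2F gene (left) and each pocket protein gene (right) takes in each library, with the 8 *APOE3* replicates in the left block and the 8 *APOE4* replicates in the right block of each panel. E2f4 takes the largest share of the E2F genes in every library, 45.8% to 56.4% in *APOE3* and 42.1% to 49.8% in *APOE4*.

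Whether the activators and repressors differed in their response was tested on ratios within a library, which cancel library size. The log2 ratio of 2 members was compared between genotypes with a two-sided exact permutation test over all 12870 ways to assign the libraries to genotypes, for the 12 ratios of a repressor to an activator and the 3 ratios among pocket proteins. This set was chosen after the members' values had been seen, and p-values were adjusted over its 15 ratios. E2f8 rose relative to E2f1 by 0.23 (log2, SE 0.0512), from a log2 ratio of -0.23 ± 0.0984 to -0.01 ± 0.106 (exact permutation adjusted p = 0.0128). E2f7 rose relative to E2f1 by 0.16 (SE 0.0505, exact permutation adjusted p = 0.0247). Relative to E2f2 their differences were 0.09 (SE 0.0568) for E2f8 and 0.03 (SE 0.0742) for E2f7 and did not pass (exact permutation adjusted p = 0.161 and 0.715). So the data separated the atypical repressors from E2f1 and not from E2f2.

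E2f4 fell relative to each activator, by 0.32 to E2f1 (SE 0.121), 0.46 to E2f2 (SE 0.138) and 0.15 to E2f3 (SE 0.0476), with exact permutation adjusted p of 0.0334, 0.0247 and 0.0247. E2f6 fell relative to E2f2 by 0.35 (SE 0.119, exact permutation adjusted p = 0.0253), while its differences to E2f1 (-0.22, SE 0.104) and to E2f3 (-0.04, SE 0.0910) did not pass (exact permutation adjusted p = 0.0572 and 0.675). Against E2f3, E2f7 rose by 0.34 (SE 0.121) and E2f8 by 0.40 (SE 0.148), both at an exact permutation adjusted p of 0.0321. Rbl1 rose relative to Rbl2 by 0.38 (SE 0.105, exact permutation adjusted p = 0.0128), and its difference to Rb1 was 0.29 (SE 0.125, exact permutation adjusted p = 0.0529). Ratios of other genes were not tested, so the share of all gene pairs that would pass is not known. The adjustment over 15 ratios is milder than that over the 12481 genes of the edgeR test. By edgeR, E2f4, E2f6 and the activators were not called. In all, 8 of the 12 ratios of repressors to activators passed. Those of E2f7 and E2f8 to E2f1, of E2f4 to E2f2 and E2f3, and of Rbl1 to Rbl2 passed in all 16 analyses without 1 library, while the ratios of E2f4 to E2f1 and of E2f8 to E2f3 passed in 10 of 16, of E2f7 to E2f3 in 11 and of E2f6 to E2f2 in 15.

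Sex entered through 4 males and 4 females per genotype. No member had a genotype difference that differed between females and males (edgeR adjusted p = 0.9999 for each), as for 0% of the 12481 genes, of which 345 had an unadjusted p under 0.05. Rbl1 had nearly the same log2 fold change in males (0.31, SE 0.112) and females (0.31, SE 0.112). E2f8 had 0.52 (SE 0.184) in males and 0.44 (SE 0.184) in females, and E2f7 0.57 (SE 0.152) and 0.31 (SE 0.151). The difference for E2f7, females minus males, was -0.26 with an SE of 0.214. With 4 cultures per group, a clearly smaller effect in females and no difference could not be told apart. Within each sex alone, edgeR called 0% of the 12481 genes and 0 members, with 1775 genes at an unadjusted p under 0.05 in males and 2428 in females, among them 6 members in males (E2f1, E2f2, E2f3, E2f7, E2f8, Rbl1) and 2 in females (E2f8, Rbl1).

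The members also varied together among libraries of the same genotype. Log2 CPM was centred within genotype and compared over the 16 libraries for all 45 pairs of members, with 100000 permutations within genotype. All 10 pairs among E2f1, E2f2, E2f7, E2f8 and Rbl1 had a Pearson r of 0.795 to 0.938 and passed the permutation test adjusted over the 45 pairs, with adjusted p of 0.00015 to 0.0009. This set of 5 was put together after the values had been seen. Among the genes tested other than the members, the r that 95% stayed below was 0.727 with E2f1 and 0.719 with E2f8. E2f1 and E2f8 were the closest pair (r = 0.938, Spearman rho = 0.952, permutation p = 1e-05, the smallest these permutations can give), with r = 0.975 within *APOE3*, 0.879 within *APOE4* and 0.928 without the 2 libraries farthest from the median of E2f1. Among the other 5 members, 0 of 10 pairs passed and r ran from -0.283 to 0.395. Of the 25 pairs between the sets, 1 passed, E2f6 with Rbl1 (r = 0.604, permutation adjusted p = 0.048), and its rank correlation was weaker (rho = 0.429, permutation p = 0.115). E2f6 had a similar r with E2f1, E2f2, E2f7 and E2f8 (0.547 to 0.602), which did not pass (permutation adjusted p of 0.112 to 0.136). Rb1 and Rbl1 had the lowest r, -0.545, which did not pass. All pairs share the same 16 libraries.

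**Figure D4:**
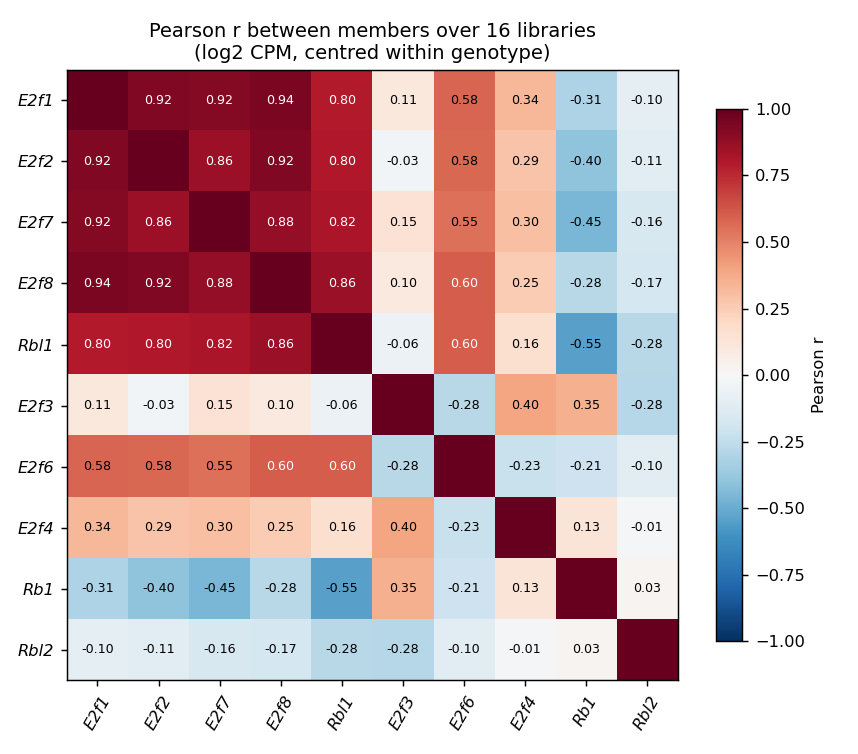
Pearson r of log2 CPM, centred within genotype, between each pair of members over 16 libraries, from -1 (blue) to 1 (red). The pairs among E2f1, E2f2, E2f7, E2f8 and Rbl1 form a block with r of 0.795 to 0.938, and E2f3, E2f4, Rb1 and Rbl2 stay outside it.

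The level of E2F target genes gives a measure that does not use the members' own counts. It is a transcript level, and the deposited counts hold no number of dividing cells for these libraries. Several members are E2F targets too, so the members and this level are not independent measures. The study measured proliferation in its cultures by bromodeoxyuridine staining, which was not set against the score here. A replication score was taken as the mean log2 CPM of 34 G1/S target genes in each library. It ranged from 4.54 to 5.13 in *APOE3* (4.80 ± 0.196, SD, n = 8) and from 4.92 to 5.48 in *APOE4* libraries (5.13 ± 0.173, n = 8). *APOE3* replicate 6 and *APOE4* replicate 1 had the highest scores of their groups, and *APOE3* replicates 5 and 8 the lowest of all. Within each genotype, E2f1, E2f2, E2f7, E2f8 and Rbl1 followed the score, with r of 0.825 to 0.980 in both genotypes, and these 10 of 20 relations passed the exact permutation test after adjustment over the 20. Only the members were set against the score, so the share of all genes that follow it is not known. By rank, E2f7 in *APOE3* missed the threshold (rho = 0.786, exact permutation adjusted p = 0.0559) and the other 9 passed. E2f8 had r = 0.971 (rho = 0.976, exact permutation p = 7.44e-05, adjusted 0.00149) in *APOE3* and 0.946 (rho = 0.905, exact permutation p = 0.000694, adjusted 0.00278) in *APOE4*. E2f3, E2f4, E2f6, Rb1 and Rbl2 did not pass in either genotype, with r from -0.711 (Rb1 in *APOE4*, exact permutation adjusted p = 0.0862) to 0.704 (E2f6 in *APOE3*, exact permutation adjusted p = 0.0862).

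These relations leaned on the libraries at the ends of the score. Without the 2 libraries farthest from the median of each genotype, 6 remained per genotype and 2 of the 20 relations passed, those of E2f8 and Rbl1 in *APOE3*. E2f8 then had r = 0.923 in *APOE3* and 0.772 in *APOE4*, Rbl1 0.947 and 0.508, E2f7 0.572 and 0.847, E2f2 0.794 and 0.718, and E2f1 0.821 and 0.364. So the relation of E2f1 to the score in *APOE4* rests on replicates 1 and 7.

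**Figure D5:**
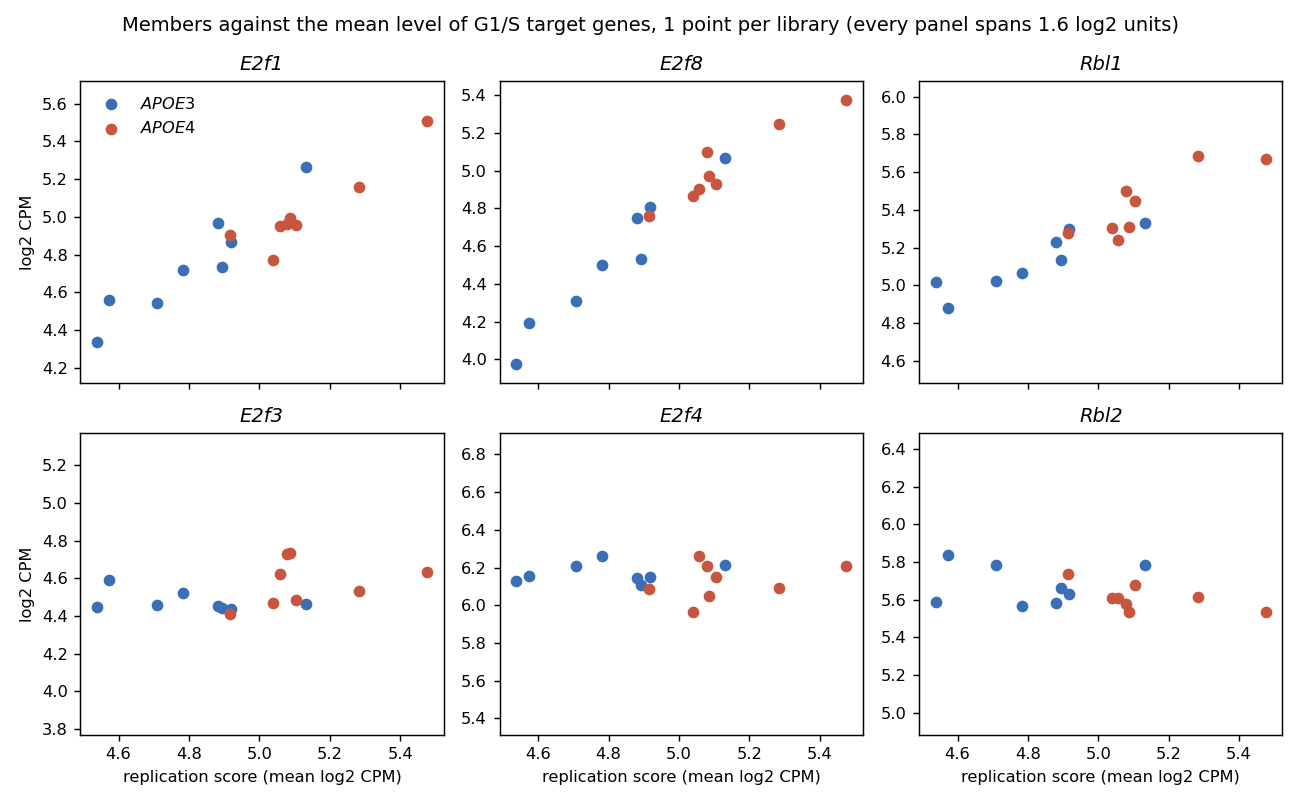
Log2 CPM of 6 members against the replication score (mean log2 CPM of 34 G1/S target genes), 1 point per library, with *APOE3* in blue and *APOE4* in red. E2f1, E2f8 and Rbl1 climb with the score within both genotypes (r of 0.855 to 0.971), and E2f3, E2f4 and Rbl2 have r of -0.578 to 0.304.

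With the score as a covariate beside genotype, 0 of the 10 members were called, and edgeR called 0 of 12481 genes, with 975 at an unadjusted p under 0.05 against 3617 without the covariate. The log2 fold change of E2f7 was then 0.05 (SE 0.0713), of E2f8 0.02 (SE 0.0700), of Rbl1 0.05 (SE 0.0608), of E2f2 -0.06 (SE 0.0915) and of E2f1 -0.15 (SE 0.0666). Of the other members, E2f6 went from 0.05 to -0.08 (SE 0.0800) and Rb1 from 0.02 to 0.12 (SE 0.0683), each by more than 1 SE, and E2f3 (0.10, SE 0.0745), E2f4 (-0.08, SE 0.0528) and Rbl2 (-0.03, SE 0.0608) by less than 1 SE. The score itself differs between the genotypes, so in this fit the genotype and the score cannot be told apart fully.

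The partners, regulators and targets of the E2F and pocket proteins were read from lists of 130 pathway genes, 120 of which were tested. In all 62 were called higher and 6 lower (median log2 fold change 0.29), against 6.71% and 6.09% and a median of 0.00 over all genes. Of the higher calls, 23 were among 34 G1/S target genes and 26 among 26 G2/M genes. The lists were chosen with earlier results of these data known. Of 9 DP partners and MuvB complex genes, 3 were higher and 0 lower. Tfdp1, the main DP partner of the typical E2F proteins, was at 49.96 ± 4.08 CPM in *APOE3* and rose to 60.8 ± 7.20 CPM in *APOE4* (0.28, SE 0.0651, edgeR adjusted p = 0.0108). Foxm1, which joins the MuvB core to switch on mitotic genes, rose by 0.55 (SE 0.135, edgeR adjusted p = 0.0143), and Lin9, a core subunit, by 0.41 (SE 0.103, edgeR adjusted p = 0.0166). The median of the list was 0.16, and 5 of the 9 passed by DESeq2 and also without *APOE3* replicate 6.

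Of the 8 cyclins and kinases that phosphorylate pocket proteins, 1 was called higher and 0 lower (median 0.07), and 4 passed without *APOE3* replicate 6. Over all genes 12.8% were called, so 1 of 8 is near that share. Of the 7 CDK inhibitors 3 were higher and 1 lower. Cdkn2d and Cdkn2c, which block Cdk4 and Cdk6, rose by 0.39 (SE 0.0799, edgeR adjusted p = 0.00748) and 0.51 (SE 0.145, edgeR adjusted p = 0.0285). Cdkn2a rose by 0.78 (SE 0.237, edgeR adjusted p = 0.0359) from 0.741 ± 0.294 CPM, with at most 25 counts in any library. Cdkn1a, which encodes p21, fell by 0.11 (SE 0.0323, edgeR adjusted p = 0.0262), from 251 ± 12.7 to 232 ± 5.08 CPM. Without *APOE3* replicate 5 or 8, 1 inhibitor in place of 4 passed, and without *APOE4* replicate 1 or 7, 2 passed.

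Of 7 genes for the turnover of these proteins, 3 were higher and 0 lower. They were Ccnf, whose product marks activator and atypical E2F proteins for degradation (0.56, SE 0.140, edgeR adjusted p = 0.0152), Cks1b (0.48, SE 0.142, edgeR adjusted p = 0.0314) and Skp2 (0.35, SE 0.0961, edgeR adjusted p = 0.0244), which degrade the inhibitor p27 together. Without *APOE4* replicate 1 or 7, the number called in this list was 1. Of 11 corepressors of pocket proteins 2 rose and 3 fell (median 0.01). The histone methyltransferase Suv39h1 (0.23, SE 0.0480) and the deacetylase Hdac1 (0.14, SE 0.0402) rose, and the remodeller Smarca2 (-0.22, SE 0.0619) and the scaffolds Sin3b (-0.12, SE 0.0350) and Sin3a (-0.12, SE 0.0363) fell, with edgeR adjusted p of 0.00817 to 0.0330. The number of corepressors called was 1 without *APOE3* replicate 5 or 8, 2 without *APOE4* replicate 7 and 3 without *APOE4* replicate 1.

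Most target genes on the lists rose. Of 34 G1/S targets 23 rose and 1 fell (median log2 fold change 0.33). Chek1, the checkpoint kinase of S phase, rose from 4.30 ± 0.822 to 6.74 ± 1.41 CPM (0.64, SE 0.136, edgeR adjusted p = 0.00817). Orc1, of the origin recognition complex, rose by 0.55 (SE 0.164, edgeR adjusted p = 0.0339). Windows of 15 of the 30 list genes with a RefSeq promoter (50%) held E2F letters. The count of calls in the list fell to 15 without *APOE3* replicate 2, to 11 without *APOE3* replicate 5, to 13 without *APOE3* replicate 8, to 13 without *APOE4* replicate 1 and to 10 without *APOE4* replicate 7.

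All 26 G2/M genes of the MuvB complexes were called higher, with log2 fold changes of 0.55 to 0.86 and a median of 0.69. The largest were the spindle gene Hmmr (19.8 ± 5.90 to 35.9 ± 8.89 CPM, 0.86, SE 0.170, edgeR adjusted p = 0.00649), the kinetochore motor Cenpe (0.82, SE 0.170, edgeR adjusted p = 0.00787) and the mitotic cyclin Ccnb2 (0.82, SE 0.181, edgeR adjusted p = 0.00958). Over the 16 fits that left out 1 library, 23 to 26 of them were called. Each of these 26 values was above that of every E2F and pocket protein gene. E2F letters stood in windows of 1 of the 22 genes of this list with a RefSeq promoter (4.55%).

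Of the 10 subunits of the E2f6 Polycomb complex PRC1.6, 0 were called by edgeR, with a median of -0.03 and values from -0.19 to 0.09, and 1 was called without *APOE4* replicate 2. Of 10 germline genes that this complex keeps silent, 1 had enough counts to be tested, Stag3, with 0.644 ± 0.240 CPM in *APOE3* and 0.654 ± 0.282 CPM in *APOE4* (0.04, SE 0.292, edgeR adjusted p = 0.945). Of 7 tested death genes among E2F targets, Apaf1 was higher (0.10, SE 0.0331, edgeR adjusted p = 0.0426) and Bbc3 lower (-0.29, SE 0.0763, edgeR adjusted p = 0.0179). Apaf1 encodes the core of the apoptosome and Bbc3 the death protein PUMA. In 12 of the 16 fits that left out 1 library, the number called in this list was 1.

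The genes most like a member were those with the highest r of log2 CPM, centred within genotype, over the 16 libraries. For E2f1 they were Dnmt1 (r = 0.959), Fstl1 (0.954) and Slfn9 (0.949), and for E2f8 Ccna2 (0.956), Aurkb (0.955) and Slfn9 (0.954). The r that 95% of all genes stayed below was 0.727 for E2f1 and 0.719 for E2f8. For E2f4 they were Rps21 (0.890), Cep164 (0.886) and Chfr (0.877), against 0.531, and for Rbl2 Selenoo (0.764), Izumo4 (0.758) and Neurl1b (0.745), against 0.448. Dnmt1, the maintenance DNA methyltransferase, is in the G1/S list, Aurkb, a mitotic kinase, in the G2/M list, and Ccna2 is the cyclin of S and G2 phase. The members and these genes come from the same libraries, so these values describe likeness and carry no test.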

How the data were processed

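Counts per gene were deposited by the authors as whole numbers without normalization, 1 column per culture. Per the labels, the submitters' processing notes name STAR and featureCounts with the builds mm10 and hg38, and versions, annotation release and strand setting are not given in the sources used here. Human APOE stands as 1 row beside 39056 mouse identifiers, which were matched to GENCODE vM21 for symbols and exonic lengths (38872 found). Libraries were made from 100 ng of RNA with 17 cycles of PCR and read over 50 nt. Reads carry no molecular identifiers, so depth bounds counting error only. No 2 libraries were identical, with Spearman correlations of 0.942 to 0.948 over all rows. The labels number the mice across the whole series, so replicates here are numbered within genotype and name a culture only. Each culture came from 1 brain, and the labels name no batch.

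The test was that of edgeR 4.0.16 in R 4.3.3 (filterByExpr by genotype, TMM, genotype as the term, quasi-likelihood F test, Benjamini-Hochberg over 12481 genes, threshold 0.05, called when under it). SE is the log2 fold change divided by the square root of F. CPM used TMM library sizes, log2 CPM a prior count of 2, and RPKM the summed length of all annotated exons, which lowers the level of genes with many isoforms. Sex came from 1 fit of 4 groups. Correlations used exact permutation over 40320 pairings, whose smallest p is 2.48e-05. Permutations ran in Python 3.11.15 and figures were drawn with matplotlib 3.10.9. Scripts were tested on simulated data. The main text of the paper names no count test, so edgeR was used.

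Alternatives were DESeq2 1.42.0 (size factors, Wald test), voom with quality weights in limma 3.58.1, no filter, a minimum of 10 counts per library, sex or the replication score as a covariate, and each library left out. The members and gene lists were chosen with earlier results of these data known. Named in the text were the members, in each list up to 3 called genes per direction with the largest change, and the 3 genes most like E2f1, E2f8, E2f4 and Rbl2. Some genes of the lists are counted but not reported here by name.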

Additional observations from a re-analysis of the deposited data

Results flagged for a closer look

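Dixon's test was run on the CPM of each member in each genotype, 20 groups of 8 libraries, of which chance flags about 1 in 20. In 4 groups 1 library stood apart. *APOE4* replicate 1 was highest for E2f1 (45.4 CPM) and E2f2 (23.5 CPM). *APOE4* replicate 7 was highest for E2f6 (25.0 CPM). *APOE3* replicate 6 was highest for E2f7 (46.3 CPM). *APOE4* replicate 1 and *APOE3* replicate 6 also had the highest replication score of their genotype (5.48 and 5.13), and their part in these values was not tested. With both left out, a choice made after these values had been seen, 5 members were called in place of 3, E2f7 at 0.47 (SE 0.0708), E2f8 at 0.52 (SE 0.108), Rbl1 at 0.31 (SE 0.0724), E2f2 at 0.42 (SE 0.104) and E2f1 at 0.27 (SE 0.0809).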

How the results depend on the processing

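The calls of E2f7, E2f8 and Rbl1 held under DESeq2's size factors, both filters, DESeq2's Wald test, voom, sex as a covariate and each of the 16 fits without 1 library, and were lost with the replication score as a covariate, where 0 members and 0 pathway genes (68 otherwise) were called. The pathway genes include the 34 G1/S targets that make up the score. Adjusting these genes for their own mean removes most of their difference by construction, so their lost calls carry no information. Without 1 library, 3 to 5 members were called, 5 without *APOE3* replicate 6 and also 5 with *APOE4* replicate 1 left out beside it, and 43 to 84 pathway genes, 43 without *APOE3* replicate 5 or *APOE4* replicate 7 and 45 without *APOE3* replicate 8. Over all genes 1597 calls became 853, 846 and 952 without these libraries and 0 with the covariate. The number of relations with the score fell from 10 to 2 without the 2 farthest libraries. Ratios that passed numbered 5 to 11 without 1 library (9 with all), 5 without *APOE4* replicate 1. Members whose genotype difference differed between sexes numbered 0 under every alternative tried. No paired analysis was possible because the labels give each mouse its own number and no number is shared between genotypes. With the covariate the log2 fold changes of E2f1 (-0.15) and E2f2 (-0.06), which some alternatives called higher, turned below 0 and were not called.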
